A study of Homo sapiens with 9 samples.

Results

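The 32 genes described here act between the end of DNA replication and the separation of daughter cells, the G2/M and mitotic genes. They are a fixed list of gene names, chosen with earlier results of these data known. They comprise 7 genes of the cyclin-dependent kinase engine, 7 mitotic and checkpoint kinases, the transcription factor FOXM1, 3 genes of the anaphase-promoting complex pathway, 4 of the centromere and passenger complex, 8 kinesins and spindle proteins and 2 of chromosome structure. All 32 were found among 56865 annotated genes, and all 32 were among the 13914 genes that passed the filter on low counts and were tested.

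Cells enter mitosis when CDK1, a protein kinase, is bound by cyclin A or cyclin B and its inhibitory phosphates are removed by CDC25 phosphatases. PLK1 and the Aurora kinases then drive centrosome maturation and chromosome alignment, and the anaphase-promoting complex ends mitosis by marking the cyclins and securin for destruction. Transcription of these genes peaks late in the cell cycle: B-MYB and FOXM1, acting with the MuvB complex, raise it, and the DREAM complex, which forms when p53 induces the kinase inhibitor p21, lowers it.

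Expression was measured by RNA sequencing of poly(A)-selected RNA from cells labelled BxPC3, an established human pancreatic adenocarcinoma line. All 9 libraries carry the same genotype label, p53Y220C/-, in which the Y220C change alters the DNA-binding domain of the tumour suppressor p53. There were 3 libraries of cells treated with MS172, 3 of cells treated with PK9328, a compound known to bind the Y220C mutant, and 3 of cells given the vehicle DMSO. Dose and time, 5 µM and 6 h, come from a protocol text that lists MS78 beside PK9328 and does not mention MS172, the name used in the sample titles and treatment labels. The labels do not say whether the 3 libraries of a group came from separate cultures, so p-values measure the spread between these libraries, which may be technical.

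Library depth was 24077353 to 28031886 estimated reads. Of 14 ductal and epithelial markers, 6 stayed under 1 CPM (read counts scaled to library size) in every library, among them the defining genes EPCAM (at most 0.0745 CPM), CDH1 (at most 0.0417) and KRT7 (at most 0.103), whose near absence goes against the label of an epithelial tumour line. Other markers of the list were high: KRT18 was at 710 to 984 CPM, KRT8 at 651 to 864, KRT19 at 290 to 367, SOX9 at 237 to 381 and CLDN4 at 97.4 to 218 CPM. The summed level of the 14 was 2631 to 2796 CPM with MS172, 2020 to 2101 CPM with PK9328 and 2168 to 2336 CPM with DMSO. The 9 mesenchymal markers, 3 of them under 1 CPM, summed to 12408 to 12931 CPM with MS172, 9986 to 10254 CPM with PK9328 and 11796 to 11974 CPM with DMSO. Nearly all of these sums came from VIM (8080 to 10383 CPM) and COL1A2 (1799 to 2548 CPM). ZEB1 was at 80.1 to 103 CPM, and every other mesenchymal marker at 7.7 CPM or less. Of the markers of other cell types, 5 of 6 leukocyte, 4 of 4 endothelial and 6 of 6 acinar and endocrine genes were under 1 CPM in all libraries. Fragments were estimated at 274.1 to 292.8 bases with MS172, 249.5 to 263 bases with PK9328 and 281.2 to 289.1 bases with DMSO, so each PK9328 library had shorter fragments than each library of the other groups. The part of these markers and of fragment length in the results was not tested.

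The start regions of these genes share sequence elements that the choice of the list did not use. The CHR element, with the core TTTGAA or TTTAAA, and the CCAAT box are known elements of promoters of late cell cycle genes. Promoter sequence was taken from RefSeq (GRCh38.p14), which matched 26 of the 32 genes; AURKA, BIRC5, TPX2, UBE2C, FOXM1 and TTK are named only. For 23 of these 26, the last 30 bases of the sequence taken, beyond the start, were found in a transcript of the gene. The 250 bases before each start were searched on both strands, and a gene with several listed starts was counted when any of them matched. CCAAT was found in 24 of 26 members (92.3%), against 37.0% of 27305 genes in the table. Those 27305 were not limited to the 13914 genes tested here, whereas all members were tested. TTTGAA was found in 16 (61.5%, against 16.1%) and TTTAAA in 11 (42.3%, against 13.5%). The related spelling TTCGAA, also searched, was found in 0 members, against 1.5% of all genes, and is not counted as a CHR core here. A CHR core starting 60 to 10 bases before the start, a window chosen after the positions were seen, was present in 17 members (65.4%), against 6.08% of all genes, and 16 of these members also held a CCAAT box (61.5%, against 2.12%). Of 4 spellings of an E2F site, TTTGGCGC, TTTCGCGC and TTTCCCGC were each found in 1 member (3.85%), against 0.681%, 0.542% and 1.7% of all genes, and TTTGCCGC in 0, against 0.586%.

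The 110 bases upstream of the start are printed for 6 members, 5′ to 3′ along the gene's own strand: CKS2 (chr9:89311085-89311194, plus strand), the member that changed most, its relative CKS1B (chr1:154974571-154974680, plus), CDC20 (chr1:43358871-43358980, plus), CENPF (chr1:214603085-214603194, plus), KIF11 (chr10:92593020-92593129, plus) and MKI67 (chr10:128126424-128126533, minus). Capitals mark CCAAT or its reverse complement ATTGG, and TTTGAA, its reverse complement TTCAAA, or TTTAAA.
CKS2: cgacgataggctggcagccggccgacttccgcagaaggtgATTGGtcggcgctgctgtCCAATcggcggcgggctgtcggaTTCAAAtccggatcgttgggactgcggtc
CKS1B: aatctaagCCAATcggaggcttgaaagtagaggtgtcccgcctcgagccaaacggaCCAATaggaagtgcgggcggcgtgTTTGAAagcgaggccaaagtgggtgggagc
CDC20: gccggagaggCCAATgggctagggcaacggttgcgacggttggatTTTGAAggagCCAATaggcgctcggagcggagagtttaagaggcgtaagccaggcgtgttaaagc
CENPF: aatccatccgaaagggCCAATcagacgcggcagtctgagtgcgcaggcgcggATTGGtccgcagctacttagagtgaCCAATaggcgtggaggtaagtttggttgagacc
KIF11: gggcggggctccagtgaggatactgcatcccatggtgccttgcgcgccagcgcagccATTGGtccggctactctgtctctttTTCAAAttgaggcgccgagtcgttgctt
MKI67: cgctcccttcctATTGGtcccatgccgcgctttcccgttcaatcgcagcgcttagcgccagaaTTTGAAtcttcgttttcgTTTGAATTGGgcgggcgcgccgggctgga
CKS2 and CKS1B have CHR cores at positions -29 and -30 and a nearest CCAAT box at -52 and -54, counted back from the start to the first base of the motif. KIF11 has the same pair at -28 and -53. CDC20 has its nearest CHR core at -65 and CENPF at -115, outside the near window as counted from the RefSeq start. RefSeq and GENCODE 29 starts can differ, for example 43358981 and 43358955 for CDC20, and 92593130 and 92593286 for KIF11. Of the bases printed, 26 for CDC20 and 28 for CKS1B lie in a GENCODE exon. Whether a core falls in the near window therefore depends on the start used. MKI67 has CHR cores at -47 and -29, and its last CHR core and ATTGG share a base.

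**Figure D1:**
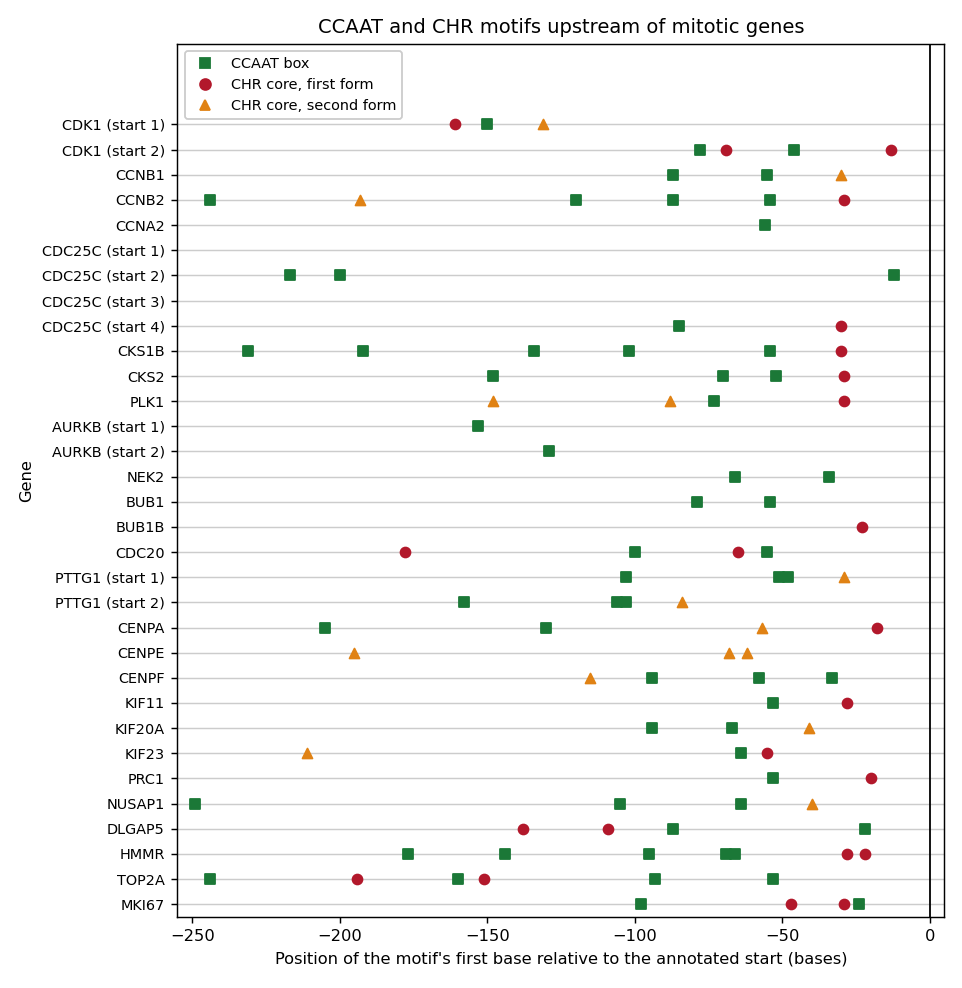
Positions of CCAAT boxes (green squares) and of the CHR core in its TTTGAA (red circles) and TTTAAA (orange triangles) forms in the 250 bases before each annotated start, with the distance from the start on the horizontal axis in bases and 1 row per start (4 genes have several starts). The CHR cores cluster close to the start, in 17 of 26 genes between 60 and 10 bases before it, with CCAAT boxes mostly further upstream.

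Members with and without a near CHR core had similar medians, but the largest rises were among those with one. With MS172 against DMSO the fold changes ran from -0.13 to 1.16 with a near core and from -0.09 to 0.18 without. With PK9328 against DMSO they ran from -0.31 to 0.25 and from -0.27 to -0.01. Between the compounds they ran from -0.06 to 0.91 and from -0.02 to 0.32. The median log2 fold change was 0.05 in the 17 members with one and 0.07 in the 9 without for MS172 against DMSO, -0.11 and -0.09 for PK9328 against DMSO, and 0.18 and 0.18 for MS172 against PK9328. These are descriptions of matching letters, with no test.

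Summed over the 32 genes, the mRNA level was 2769 ± 15 CPM with MS172, 2281 ± 12 CPM with PK9328 and 2489 ± 36 CPM with DMSO (SD, n = 3 each). The groups did not overlap: the libraries spanned 2757 to 2786 CPM with MS172, 2268 to 2292 CPM with PK9328 and 2458 to 2528 CPM with DMSO. Leaving out CKS2, the sums were 2531 ± 12 CPM with MS172, 2154 ± 15 CPM with PK9328 and 2382 ± 32 CPM with DMSO. In bulk RNA, a different number of cells in G2 or mitosis and a different amount of mRNA per cell cannot be told apart.

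**Figure D2:**
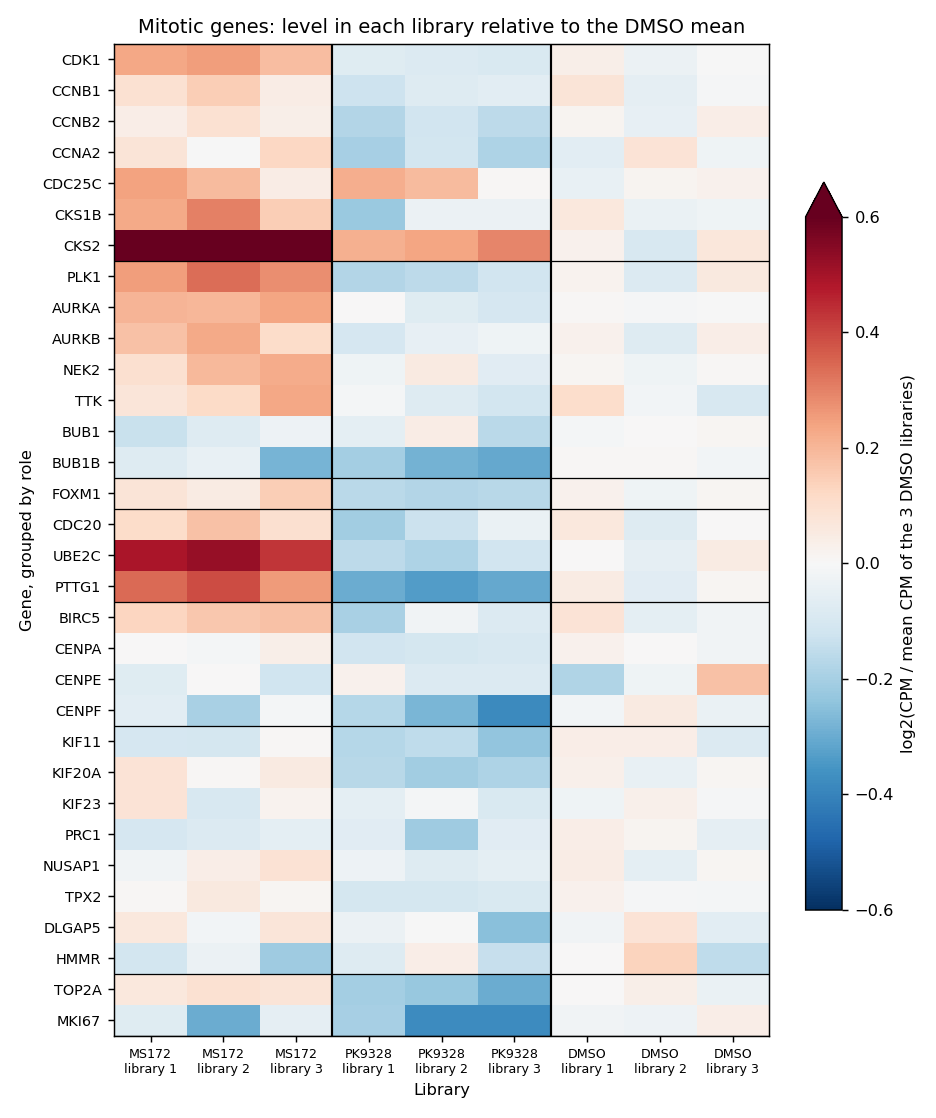
Level of each of the 32 genes in each of the 9 libraries, as log2 of CPM over the mean CPM of the 3 DMSO libraries, with genes grouped by role (horizontal lines) and libraries by treatment (vertical lines). CKS2, at log2 fold change 1.16, runs off the colour scale in the MS172 libraries, and the PK9328 libraries are mostly on the low side.

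With MS172 against DMSO, 11 of 32 members rose and 0 fell (edgeR adjusted p under 0.05 over all genes tested), whereas 17.9% of all genes tested rose and 17.2% fell. The unadjusted p was under 0.05 for 16 members above 0 and 1 below (BUB1B), and DESeq2 called 12 higher and 0 lower and limma-voom 11 and 0. Without CKS1B and CKS2, 9 of 30 members rose (30%) and 0 fell. The median log2 fold change was 0.07 over the 32 members and -0.02 over all genes. The genes that rose were CKS2, UBE2C, PTTG1, PLK1, CKS1B, CDK1, AURKA, NEK2, AURKB, BIRC5 and CDC20. CDC20 was not called without MS172 library 2 or DMSO library 2 (edgeR adjusted p = 0.11 for each), NEK2 without MS172 library 2 or 3 (edgeR adjusted p = 0.053 and 0.068) and BIRC5 without DMSO library 2 (edgeR adjusted p = 0.058). With counts rebuilt from length-scaled TPM, NEK2 lay at 0.10 and BIRC5 at 0.15, neither called (edgeR adjusted p = 0.31 and 0.11). With offsets for trends in GC content and length, left uncentred, 19 members rose and 0 fell in edgeR, 21 above 0 and 0 below having an unadjusted p under 0.05. Of all 13914 genes, 3216 rose and 1891 fell with that offset.

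With PK9328 against DMSO, 13 members fell and 1, CKS2, rose, whereas 7.48% of all genes fell and 7.98% rose (edgeR). Leaving out CKS1B and CKS2, 13 of 30 fell (43.3%) and 0 rose. The median over the 32 members was -0.10, against 0.00 over all genes, and 30 of 32 had a fold change below 0. DESeq2 called 12 lower and 1 higher, and limma-voom 13 and 1. With fragment length as a covariate the median was also -0.10, but 0 members passed in edgeR, 7 below 0 at an unadjusted p under 0.05 and 0 above. Of all 13914 genes, only 67 fell and 111 rose in that fit. Fragment length and PK9328 treatment overlap in these libraries and cannot be told apart. With counts rebuilt from length-scaled TPM 8 fell and 0 rose, with 16 below 0 and 1 above at an unadjusted p under 0.05. There 539 of all 13963 genes fell and 541 rose. With the offset for GC content and length, 17 members fell when it was centred and 19 when it was not, and 1 rose in each. Over all genes 1219 fell and 1306 rose with the centred offset, and 1498 fell and 1111 rose with the other. Without PK9328 library 2, or without DMSO library 3, 8 members fell and 1 rose. Over all genes 650 fell and 750 rose without PK9328 library 2, and 739 fell and 789 rose without DMSO library 3.

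Both comparisons use the same 3 DMSO libraries, and MS172 was therefore also set against PK9328 directly. There 22 members were higher with MS172 and 0 lower (edgeR), whereas 23.3% of all genes were higher and 24.4% lower. Leaving out CKS1B and CKS2, 20 of 30 were higher (66.7%) and 0 lower. The median was 0.19 over the members and -0.03 over all genes, 29 of 32 fold changes were above 0, and 25 members above 0 and 0 below had an unadjusted p under 0.05. DESeq2 and limma-voom each called 22 higher and 0 lower. With fragment length as a covariate 10 were higher and 0 lower in edgeR, with 13 above 0 and 1 below at an unadjusted p under 0.05, at a median of 0.17. Of all 13914 genes, 1372 were higher and 1108 lower in that fit. The 12 members that lost their call then lay between 0.09 and 0.26, except KIF11 at -0.02, NEK2 at 0.01 and TTK at 0.02. The protocol does not name MS172, so whether both compounds were given at the same dose and for the same time is not stated, and the direct comparison holds for the treatments as labelled.

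**Figure D3:**
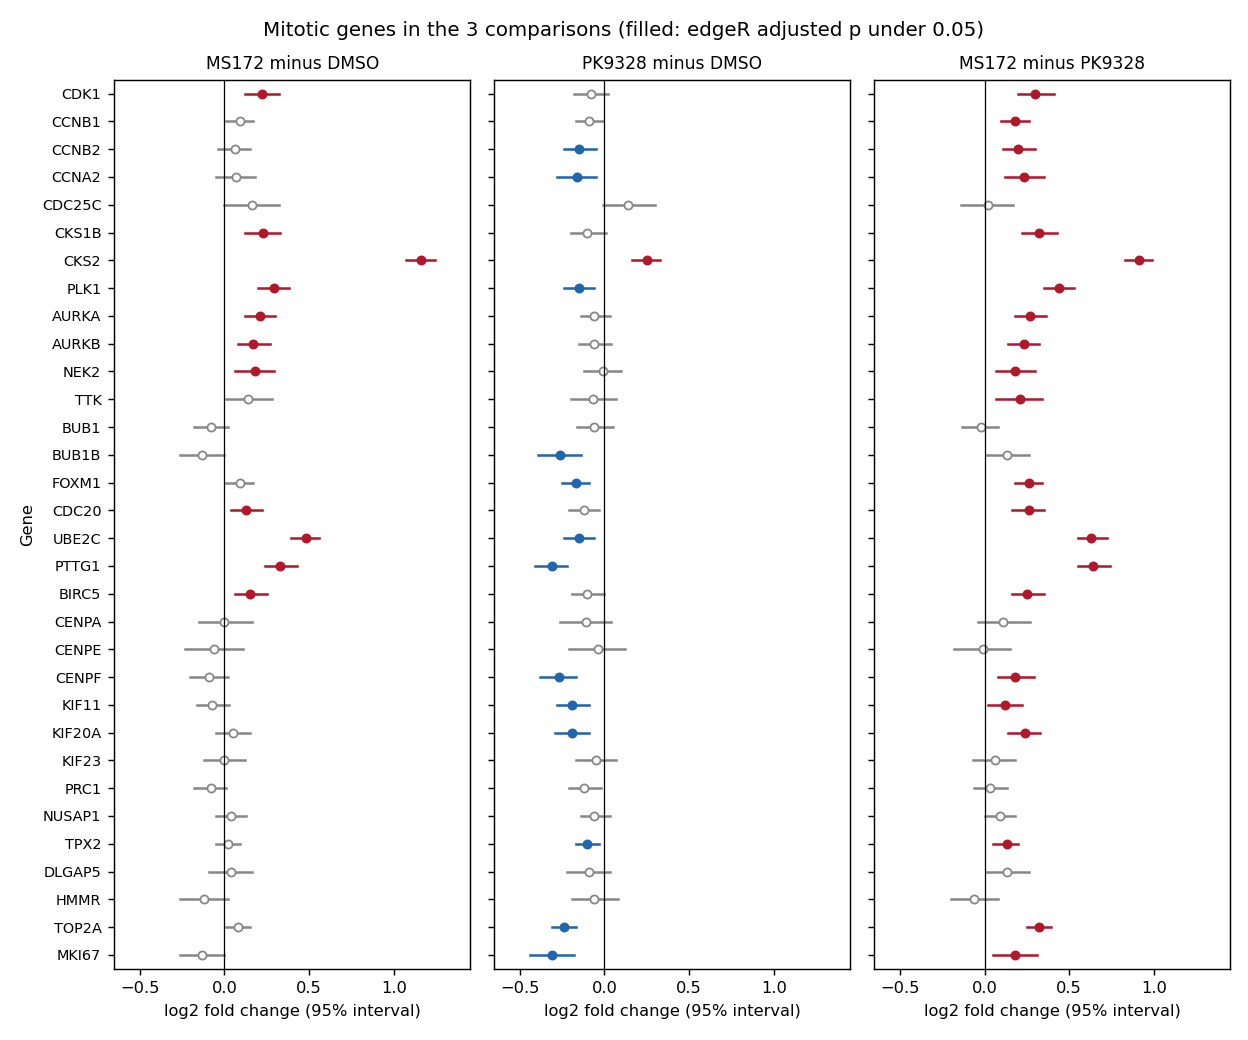
Log2 fold change of each gene with its 95% interval in the 3 comparisons, each panel named with the first group minus the second; filled red points were called higher and filled blue points lower (edgeR adjusted p under 0.05), and open grey points were not called. The left panel holds 11 red and 0 blue points, the middle panel 1 red and 13 blue, and the right panel 22 red and 0 blue.

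In the cyclin-dependent kinase engine, CKS2 stood apart from every other member. CKS2, a small subunit that binds cyclin-dependent kinases and docks them on phosphorylated substrates (chromosome 9, 89311198 to 89316703, plus strand, GENCODE 29 on hg38), stood at 245, 243 and 228 CPM with MS172, at 124, 126 and 131 CPM with PK9328 and at 109, 100 and 112 CPM with DMSO. All MS172 libraries were far above all others, and all PK9328 libraries were above all DMSO libraries. The log2 fold change was 1.16 ± 0.04 (SE) with MS172 and 0.25 ± 0.04 with PK9328 against DMSO, and 0.91 ± 0.04 between the compounds (edgeR adjusted p = 2.7e-19, 0.00012 and 4e-17). CKS2 was the only member called higher than DMSO with both compounds. With counts rebuilt from length-scaled TPM the value with PK9328 was 0.15 and not called (edgeR adjusted p = 0.06). The fragment length covariate also gave 0.15 with PK9328, not called (edgeR adjusted p = 0.47). CKS2 has 1 annotated transcript, of 613 bases, so its value does not depend on how reads were shared between isoforms.

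CKS1B, the related subunit that also serves the SCF-SKP2 ubiquitin ligase (chromosome 1, 154974653 to 154979249, plus strand), stood at 86.2, 90.9 and 81.6 CPM with MS172, at 63.0, 71.9 and 71.8 CPM with PK9328 and at 77.0, 71.7 and 72.3 CPM with DMSO. The MS172 libraries were above all others, and the PK9328 and DMSO libraries overlapped. It rose by 0.23 ± 0.05 with MS172 (edgeR adjusted p = 0.001) and lay at -0.10 with PK9328 (edgeR adjusted p = 0.23), a difference of 0.32 ± 0.05 between the compounds (edgeR adjusted p = 8.8e-06). Pseudogenes of CKS1B took at most 0.0175 CPM.

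CDK1, the kinase that starts mitosis, had 47.8, 48.4 and 46.3 CPM with MS172, 38.7, 38.5 and 38.2 CPM with PK9328, and 41.7, 39.7 and 40.6 CPM with DMSO. The 3 groups did not overlap. CDK1 rose by 0.22 ± 0.05 with MS172 (edgeR adjusted p = 0.00074), and the value of -0.08 with PK9328 was not called (95% interval -0.18 to 0.02). Between the compounds the difference was 0.30 ± 0.05 (edgeR adjusted p = 8.5e-06).

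Of the cyclins, none was called with MS172, and CCNB2 and CCNA2 were called lower with PK9328. Of all genes tested, 17.9% rose and 17.2% fell with MS172, and 7.48% fell with PK9328. CCNB1, cyclin B1, had 179, 186 and 173 CPM with MS172, 154, 159 and 161 CPM with PK9328, and 177, 162 and 167 CPM with DMSO, so that MS172 and DMSO overlapped while PK9328 was below both. Against DMSO it lay at 0.09 with MS172 and -0.09 with PK9328, neither called (edgeR adjusted p = 0.083 and 0.12), and it was 0.18 ± 0.04 higher with MS172 than with PK9328 (edgeR adjusted p = 0.00038). CCNB2, cyclin B2, and CCNA2, cyclin A2, fell with PK9328 by 0.15 and 0.16 on the log2 scale (edgeR adjusted p = 0.028 and 0.044) and lay at 0.06 and 0.07 with MS172. Both calls were lost without any 1 of the PK9328 libraries or DMSO library 3 (edgeR adjusted p = 0.051 to 0.15), that of CCNB2 also without DMSO library 1 (edgeR adjusted p = 0.091), and that of CCNA2 also without DMSO library 2 or MS172 library 1 (edgeR adjusted p = 0.19 and 0.053). CDC25C, the phosphatase that activates CDK1, showed no difference between the compounds, at 0.02 with a 95% interval of -0.14 to 0.17, and was not called against DMSO, at 0.16 with MS172 and 0.14 with PK9328. CCNA2 and CDC25C overlap genes on the opposite strand, EXOSC9 and FAM53C, at 21.5 and 97.4 CPM, and whether the counting used strand is not given in the sources used here, so their values are uncertain.

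Among the 7 kinases, 4 rose with MS172, PLK1, AURKA, AURKB and NEK2, and 2 fell with PK9328, PLK1 and BUB1B. Of all genes tested, 17.9% rose with MS172 and 7.48% fell with PK9328. PLK1, which drives mitotic entry and centrosome maturation (chromosome 16, 23677656 to 23690367, plus strand), was at 98.1, 104 and 100 CPM with MS172, at 73.0, 74.1 and 76.1 CPM with PK9328 and at 83.6, 78.0 and 85.9 CPM with DMSO. The groups did not overlap, with MS172 highest and PK9328 lowest. PLK1 rose by 0.29 ± 0.04 with MS172 and fell by 0.15 on the log2 scale with PK9328 (edgeR adjusted p = 5.6e-06 and 0.02), and the compounds differed by 0.44 ± 0.04 (edgeR adjusted p = 1.9e-09). The fall with PK9328 was not called without PK9328 library 1 or 2 or DMSO library 1 or 3 (edgeR adjusted p = 0.073 to 0.12).

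AURKA, which acts at spindle poles, averaged 79.4 ± 1.3 CPM with MS172, 65.9 ± 2.5 CPM with PK9328 and 68.5 ± 0.35 CPM with DMSO. AURKB, the kinase of the passenger complex at centromeres, averaged 84.4 ± 3.5 CPM with MS172, 72.0 ± 1.9 CPM with PK9328 and 74.9 ± 3.2 CPM with DMSO (SD, n = 3 each). Against DMSO the pair rose by 0.21 and 0.17 with MS172, and with PK9328 both lay at -0.06. NEK2, which separates centrosomes, rose by 0.18 with MS172 and lay at -0.01 with PK9328, and it was 0.18 higher with MS172 than with PK9328 (edgeR adjusted p = 0.0071). That difference was 0.01 with the fragment length covariate and 0.11 with length-scaled TPM, not called in either (edgeR adjusted p = 0.95 and 0.21). TTK, the checkpoint kinase MPS1, was not called against DMSO, at 0.14 and -0.07, and was 0.21 higher with MS172 than with PK9328 (edgeR adjusted p = 0.0098), or 0.16 and not called without MS172 library 3 (edgeR adjusted p = 0.072). The TTK difference was 0.02 with the fragment length covariate (edgeR adjusted p = 0.95) and missed the threshold with length-scaled TPM, at 0.21 (edgeR adjusted p = 0.052).

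The BUB family genes gave other values. BUB1B, which encodes the checkpoint protein BUBR1, had 30.2, 30.9 and 26.3 CPM with MS172, 27.7, 26.2 and 25.8 CPM with PK9328, and 32.1, 32.1 and 31.5 CPM with DMSO. Both treated groups were below DMSO and overlapped each other. BUB1B fell by 0.26 on the log2 scale with PK9328 (edgeR adjusted p = 0.0031) and lay at -0.13 with MS172 (edgeR adjusted p = 0.1), and the difference of 0.13 between the compounds was not called (95% interval 0.01 to 0.26, edgeR adjusted p = 0.079). BUB1, a kinetochore kinase, lay at -0.08 and -0.06 against DMSO, with a difference of -0.02 between the compounds (95% interval -0.13 to 0.08).

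FOXM1, the transcription factor of the late cell cycle programme, had 116, 114 and 122 CPM with MS172, 98.2, 97.4 and 98.1 CPM with PK9328, and 112, 108 and 111 CPM with DMSO. The groups did not overlap. It fell by 0.17 on the log2 scale with PK9328 (edgeR adjusted p = 0.0025), lay at 0.09 with MS172 (edgeR adjusted p = 0.07) and was 0.26 ± 0.04 higher with MS172 than with PK9328 (edgeR adjusted p = 2.2e-06). FOXM1 overlaps RHNO1 (53.4 CPM) and ITFG2 (12.4 CPM) on the opposite strand, and the same doubt on strand applies.

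The 3 genes of the anaphase-promoting complex pathway all rose with MS172, whereas 17.9% of all genes tested rose. UBE2C, the ubiquitin-conjugating enzyme that works with the complex (chromosome 20, 45812576 to 45816957, plus strand), had 119, 122 and 114 CPM with MS172, 76.1, 74.7 and 78.3 CPM with PK9328, and 85.0, 81.8 and 87.7 CPM with DMSO. PTTG1, securin, the inhibitor of separase (chromosome 5, 160421822 to 160428744, plus strand), had 82.0, 84.9 and 77.3 CPM with MS172, 52.7, 51.3 and 52.3 CPM with PK9328, and 67.1, 61.9 and 65.3 CPM with DMSO. For both genes the 3 groups were separate, with MS172 highest and PK9328 lowest.

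UBE2C rose by 0.48 ± 0.04 with MS172 and fell by 0.15 on the log2 scale with PK9328 (edgeR adjusted p = 2.3e-10 and 0.013), the fall not being called without PK9328 library 2 or DMSO library 3 (edgeR adjusted p = 0.081 and 0.078). PTTG1 rose by 0.33 ± 0.05 with MS172 and fell by 0.31 on the log2 scale with PK9328 (edgeR adjusted p = 2e-06 and 2.2e-05). Between the compounds the differences were 0.63 ± 0.04 for UBE2C and 0.64 ± 0.05 for PTTG1 (edgeR adjusted p = 2.9e-13 and 2.7e-12), behind only CKS2 among the members. CDC20, the activator that brings substrates to the complex, averaged 126 ± 4.1 CPM with MS172, 105 ± 6.1 CPM with PK9328 and 115 ± 5.5 CPM with DMSO, rose by 0.13 with MS172 (edgeR adjusted p = 0.019) and was 0.26 higher with MS172 than with PK9328 (edgeR adjusted p = 2.3e-05). The near-identical copies PTTG2 and PTTG3P were at 0 in these libraries.

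**Figure D4:**
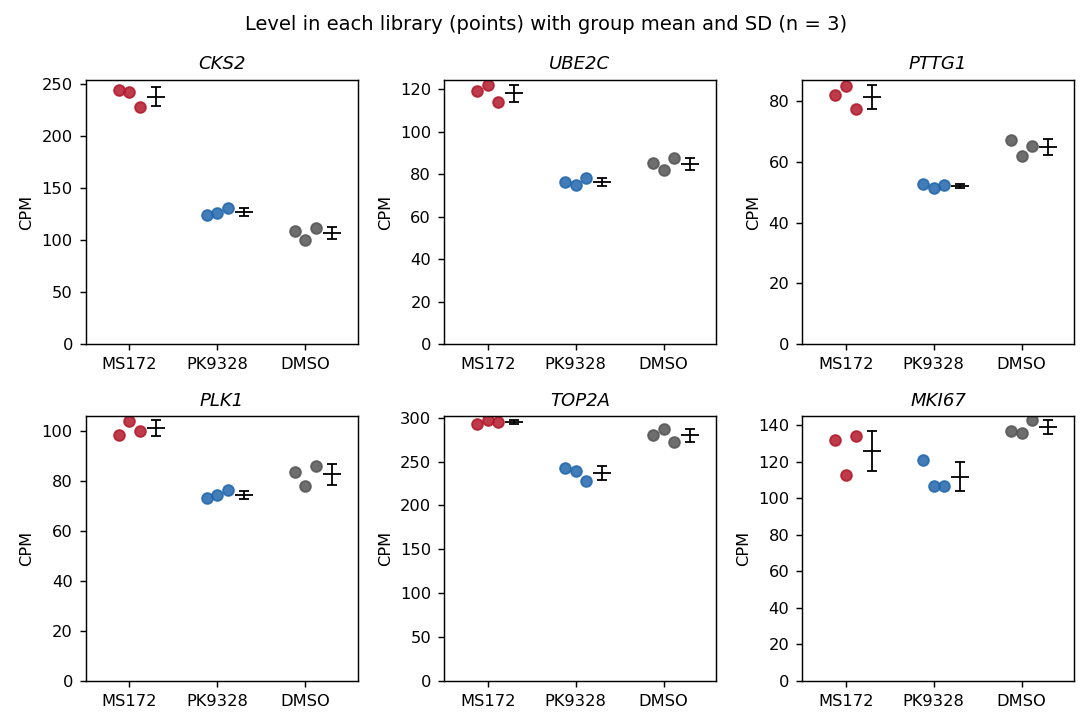
Level in CPM of CKS2, UBE2C, PTTG1, PLK1, TOP2A and MKI67 in each library, with the group mean and SD beside the points (n = 3), for MS172 (red), PK9328 (blue) and DMSO (grey). The MS172 points lie above all others for CKS2, UBE2C, PTTG1, PLK1 and TOP2A, and the PK9328 points lie lowest for UBE2C, PTTG1, PLK1 and TOP2A.

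At centromeres and the passenger complex, BIRC5 and CENPF were the genes that changed. BIRC5, survivin, which holds the passenger complex at the inner centromere and also inhibits apoptosis, had 98.6, 101 and 102 CPM with MS172, 78.8, 88.9 and 85.4 CPM with PK9328, and 95.5, 86.6 and 88.9 CPM with DMSO. The MS172 libraries were above all others, and the PK9328 and DMSO libraries overlapped. BIRC5 rose by 0.15 ± 0.05 with MS172 (edgeR adjusted p = 0.0096), lay at -0.10 with PK9328 (edgeR adjusted p = 0.16) and differed by 0.25 ± 0.05 between the compounds (edgeR adjusted p = 4.1e-05), or by 0.13 with length-scaled TPM (edgeR adjusted p = 0.11).

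CENPF, a large protein of the kinetochore corona, had 94.0, 85.8 and 97.4 CPM with MS172, 87.2, 81.3 and 75.4 CPM with PK9328, and 97.1, 102 and 95.7 CPM with DMSO. All PK9328 libraries were below all DMSO libraries, and MS172 overlapped both. CENPF fell by 0.27 on the log2 scale with PK9328 (edgeR adjusted p = 0.00057), lay at -0.09 with MS172 (edgeR adjusted p = 0.18) and was 0.18 ± 0.05 higher with MS172 than with PK9328 (edgeR adjusted p = 0.0051). CENPA, the centromeric histone, and CENPE, the kinetochore kinesin, were not called in any comparison, with fold changes between -0.11 and 0.11. CENPA overlaps SLC35F6 on the same strand (68.9 CPM against 15.1 CPM for CENPA), so its reads could be shared.

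Of the 8 kinesins and spindle proteins, 0 were called with MS172 against DMSO by edgeR, DESeq2 or limma-voom, 0 had an unadjusted p under 0.05, and fold changes lay between -0.12 and 0.05. Of all genes tested, 17.9% rose and 17.2% fell with MS172, so 0 of 8 says little about this role. With PK9328, 7.48% of all genes fell. With PK9328, 3 fell: KIF11, the motor that pushes spindle poles apart, by 0.19, KIF20A, the cytokinesis motor MKLP2, by 0.19, and TPX2, which activates Aurora A and nucleates microtubules, by 0.10 on the log2 scale (edgeR adjusted p = 0.006, 0.0071 and 0.041). The same genes were 0.12, 0.24 and 0.13 higher with MS172 than with PK9328 (edgeR adjusted p = 0.037, 0.00019 and 0.0035). The TPX2 fall was not called without any 1 of the PK9328 libraries or DMSO library 1 or 3 (edgeR adjusted p = 0.064 to 0.15), and the KIF11 difference between the compounds not without MS172 library 3 or PK9328 library 1 or 3 (edgeR adjusted p = 0.063 to 0.2). The other 5, KIF23, PRC1, NUSAP1, DLGAP5 and HMMR, were not called in any comparison. KIF20A overlaps CDC23 and BRD8 on the opposite strand (53.8 and 46.7 CPM).

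The 2 genes of chromosome structure both fell with PK9328, whereas 7.48% of all genes tested fell. TOP2A, the topoisomerase that untangles sister chromatids, had 293, 298 and 295 CPM with MS172, 243, 239 and 228 CPM with PK9328, and 280, 287 and 272 CPM with DMSO. Its 3 groups did not overlap. TOP2A fell by 0.24 on the log2 scale with PK9328 (edgeR adjusted p = 1.5e-05), lay at 0.08 with MS172 (edgeR adjusted p = 0.087) and was 0.32 ± 0.04 higher with MS172 than with PK9328 (edgeR adjusted p = 1.6e-08). The value with MS172 against DMSO depended on the setting: it was 0.26 with length-scaled TPM (edgeR adjusted p = 0.0037), 0.12 with the centred offset for GC content and length (edgeR adjusted p = 0.00077) and 0.09 with DESeq2 (adjusted p = 0.034), called higher in each. Between the compounds length-scaled TPM gave 0.53 (edgeR adjusted p = 1.3e-05).

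MKI67, the Ki-67 antigen that coats mitotic chromosomes and marks proliferating cells, had 132, 113 and 134 CPM with MS172, 121, 107 and 107 CPM with PK9328, and 137, 136 and 143 CPM with DMSO. Both treated groups were below DMSO, and they overlapped each other. MKI67 fell by 0.31 on the log2 scale with PK9328 (edgeR adjusted p = 0.0035), lay at -0.13 with MS172 (edgeR adjusted p = 0.11) and was 0.18 ± 0.06 higher with MS172 than with PK9328 (edgeR adjusted p = 0.028). That difference was not called without MS172 library 1 or 3, PK9328 library 2 or 3, or DMSO library 1 or 2 (edgeR adjusted p = 0.056 to 0.1). MKI67 and BUB1B, each below DMSO in every treated library, thus lay on the other side of DMSO from CKS2, UBE2C, PTTG1 and PLK1 in the MS172 libraries, although neither was called there by the main test. MKI67 was called lower with MS172 with the replicate block (edgeR adjusted p = 0.035), without the low count filter (0.011), with only the 6 libraries compared (0.045) and without PK9328 library 1 (0.048), at -0.14 to -0.13, whereas length-scaled TPM gave -0.02 (edgeR adjusted p = 0.9).

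Per transcript length, in TPM (transcript abundance scaled to a fixed total), levels with DMSO spanned from 2.61 ± 0.29 TPM for CENPE to 372 ± 9.6 TPM for CKS2 (SD, n = 3). Below CKS2 came CKS1B at 180 ± 9.4, UBE2C at 178 ± 0.86, CCNB1 at 165 ± 7.2 and PTTG1 at 160 ± 5.9 TPM, whose SD ranges overlap from one neighbour to the next except between UBE2C and CCNB1. With MS172, CKS2 was at 744 ± 13 TPM and UBE2C at 225 ± 4.8 TPM. With PK9328, CKS2 was at 427 ± 6.8 TPM and UBE2C at 159 ± 1.2 TPM. Summed over the members, the level was 2446 ± 36 TPM with MS172, 1990 ± 38 TPM with PK9328 and 2059 ± 50 TPM with DMSO. Unlike the sums in CPM, those in TPM overlapped between PK9328 (1965 to 2033 TPM) and DMSO (2004 to 2101 TPM). The MS172 libraries, at 2415 to 2486 TPM, were above both.

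Of the 5 members that rose most with MS172, 4 were the members under 1000 bases, and the other was PLK1, of 2114 bases, which rose more than CKS1B. The short members, CKS2, PTTG1, CKS1B and UBE2C, had a median log2 fold change of 0.41, whereas all 1633 genes of that length had 0.09. The 5 members of 4000 bases or more had a median of -0.07, and all genes of that length -0.08. Across the 32 members the fold change with MS172 and transcript length had a Spearman rho of -0.66, and -0.60 without CKS1B and CKS2. Over all 13914 genes the rho was -0.18.

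With PK9328 the medians of the same 4 short and 5 long members were -0.12 and -0.24, against 0.04 and -0.01 for all genes of those lengths. Here rho was -0.24 over the members and -0.05 over all genes. Between the compounds the medians were 0.64 and 0.18 in the members, against 0.06 and -0.08 for all genes of those lengths. The length classes were chosen after the values were seen, genes are not independent replicates, and the part of length in these differences was not tested.

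**Figure D5:**
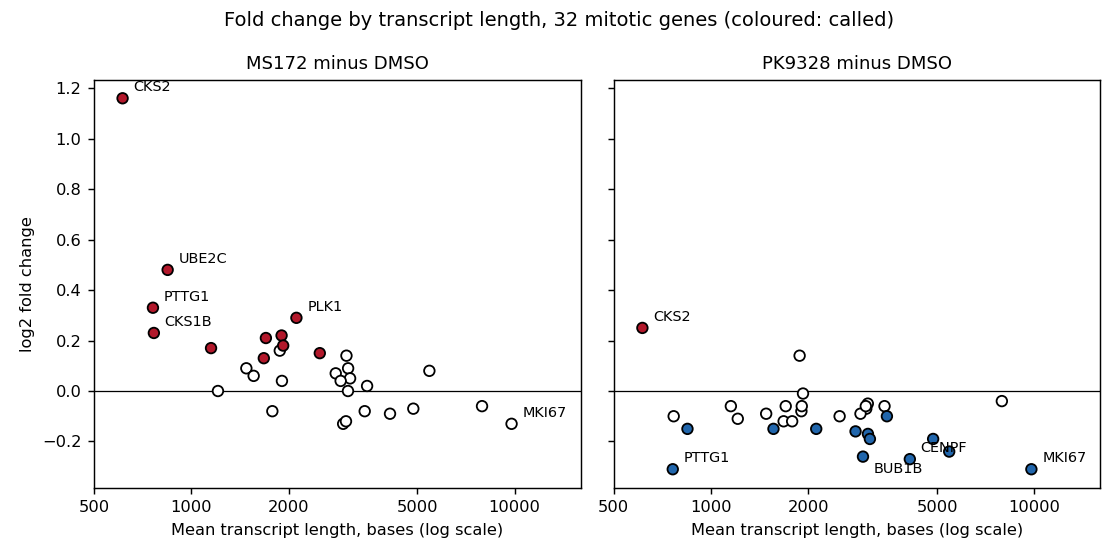
Log2 fold change of the 32 genes against mean transcript length (log scale, bases) for MS172 minus DMSO and PK9328 minus DMSO; red points rose, blue points fell and white points were not called (edgeR adjusted p under 0.05). With MS172 the 4 genes under 1000 bases are all above 0, between 0.23 and 1.16, and with PK9328 they lie between -0.31 and 0.25.

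The deposited values also give the share of each transcript in a gene's TPM, as single estimates with no error from the read assignment, so they were not tested. For CKS2, UBE2C, PTTG1, CKS1B and TPX2, 1 transcript held most of the gene in every library, from 86.2 to 90.4% for UBE2C and from 96.1 to 97.7% for PTTG1. NUSAP1, a spindle microtubule bundler, differed: its processed transcript of 546 bases was listed at 0 in the MS172 libraries, against 17.7 to 27.2% of the gene's TPM with PK9328 and 10.3 to 14.3% with DMSO. The coding transcript NUSAP1-202 held 48.2 to 56.0% with MS172, 32.9 to 36.3% with PK9328 and 27.1 to 44.4% with DMSO. Over the whole gene the level was 79.9 ± 3.0 CPM with MS172, 74.9 ± 1.2 CPM with PK9328 and 77.9 ± 2.8 CPM with DMSO, not called in any comparison, but with counts rebuilt from length-scaled TPM it lay at -0.16 with MS172 against DMSO (edgeR adjusted p = 0.022) and at -0.21 for MS172 against PK9328 (edgeR adjusted p = 0.0033).

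The kinetochore kinase gene BUB1 and the motor gene KIF20A showed a similar split between coding transcripts. BUB1-212 held 17.4 to 29.4% of BUB1 with MS172, 10.8 to 14.8% with PK9328 and 10.8 to 12.4% with DMSO, and KIF20A-205 held 28.1 to 52.8% of KIF20A with MS172, 0 to 17.7% with PK9328 and 0 to 14.1% with DMSO. In both genes the MS172 libraries were above all others. The estimates are not stable in every gene: BUB1B-207, of 526 bases, was at 0 in 4 libraries and reached 42.2% in another, and the 2 CCNA2 transcripts, each of 2797 bases, were split evenly in 4 libraries and assigned whole to 1 of them in 5.

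The regulators above these genes were listed by role, as were further mitotic genes, and the counts called in each list are to be read against all genes tested, of which 17.9% rose and 17.2% fell with MS172, 7.98% rose and 7.48% fell with PK9328, and 23.3% were higher and 24.4% lower with MS172 than with PK9328. CDKN1A, the p53 target p21 that inhibits cyclin-dependent kinases, averaged 20.3 ± 1.3 CPM with MS172, 23.6 ± 1.8 CPM with PK9328 and 14.7 ± 1.7 CPM with DMSO. It rose by 0.47 ± 0.08 with MS172 and 0.68 ± 0.08 with PK9328 (edgeR adjusted p = 6.8e-05 and 5.5e-07) and was lower with MS172 than with PK9328, at -0.21 (edgeR adjusted p = 0.026). MYBL2, which encodes B-MYB, averaged 208 ± 2.2 CPM with MS172, 163 ± 6.5 CPM with PK9328 and 188 ± 5.0 CPM with DMSO. It rose by 0.14 with MS172, fell by 0.20 on the log2 scale with PK9328 and differed by 0.35 between the compounds (edgeR adjusted p = 0.0031, 0.00026 and 7.8e-09). WEE1, the kinase that holds CDK1 inactive, rose by 0.18 with MS172 and fell by 0.18 on the log2 scale with PK9328 (edgeR adjusted p = 0.021 and 0.043). GTSE1, a microtubule protein of the G2 phase, rose by 0.22 with MS172 and fell by 0.23 on the log2 scale with PK9328 (edgeR adjusted p = 0.011 and 0.024).

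Of the 15 genes of p21, DREAM, MuvB and B-MYB, 3 rose and 4 fell with MS172, 2 rose and 1 fell with PK9328, and 3 were higher and 5 lower with MS172 than with PK9328. The shares with MS172, 20% higher and 26.7% lower, and between the compounds, 20% and 33.3%, stand beside the 17.9%, 17.2%, 23.3% and 24.4% of all genes. LIN37, a MuvB subunit, averaged 9.21 ± 0.18 CPM with MS172, 14.2 ± 0.49 CPM with PK9328 and 11.4 ± 0.63 CPM with DMSO. It fell by 0.31 on the log2 scale with MS172 and rose by 0.32 with PK9328 (edgeR adjusted p = 0.0083 and 0.0076), opposite in sign to MYBL2 in each. RBL2, the pocket protein p130 of DREAM, was lower with MS172 than with PK9328, at -0.72 (edgeR adjusted p = 0.0022).

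Further mitotic genes were counted by role. Of 16 other genes of the anaphase-promoting complex, 3 rose and 2 fell with MS172, 1 fell with PK9328, and 4 were higher and 4 lower with MS172 than with PK9328. ANAPC11, its catalytic RING subunit, rose by 0.24 with MS172 and its scaffold gene ANAPC1 fell by 0.17 on the log2 scale (edgeR adjusted p = 0.00016 and 0.004). Of 25 kinetochore and checkpoint genes, 4 rose and 6 fell with MS172, 2 rose and 2 fell with PK9328, and 4 were higher and 5 lower with MS172 than with PK9328. With MS172 that is 16% higher and 24% lower, against 17.9% and 17.2% of all genes, and with PK9328 8% each way, against 7.98% and 7.48%. DESeq2 called 3 higher and 3 lower with MS172, and 1 each way with PK9328. SPC24 of the NDC80 complex fell by 0.28 on the log2 scale with each compound (edgeR adjusted p = 0.0064 and 0.013). Its partner SPC25 rose by 0.27 with MS172 and was called lower with PK9328, at -0.22 (edgeR adjusted p = 0.0058 and 0.047). MIS12 rose by 0.58 with PK9328 (edgeR adjusted p = 4.4e-05) and lay at -0.20 with MS172, not called (edgeR adjusted p = 0.13). Of 20 genes of cohesin, condensin and separase, 4 fell and 0 rose in each comparison with DMSO (edgeR). At an unadjusted p under 0.05, 1 lay above 0 with MS172 and 0 with PK9328. DESeq2 called 3 lower with MS172 and only 1 lower with PK9328, limma-voom called 4 lower in each, and both called 0 higher. ESPL1, separase, was among those called lower by edgeR in both, at -0.28 with MS172 and -0.22 with PK9328 (edgeR adjusted p = 0.0018 and 0.023).

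Of 22 other kinesins and spindle proteins, 4 rose and 7 fell with MS172, 5 fell with PK9328, and 9 were higher and 2 lower with MS172 than with PK9328. With MS172 that is 18.2% higher and 31.8% lower, against 17.9% and 17.2% of all genes, with PK9328 22.7% lower, against 7.48%, and between the compounds 40.9% higher and 9.09% lower, against 23.3% and 24.4%. DESeq2 called 5 of the list higher and 4 lower with MS172, so falls did not outnumber rises there. Of 24471 genes, DESeq2 called 2366 higher and 1630 lower in that comparison. Limma-voom called 4 of the list higher and 7 lower. KIF18B, a motor that shortens microtubules, rose by 0.36 with MS172 (edgeR adjusted p = 4e-05), and KIF2C, which corrects faulty attachments, fell by 0.20 on the log2 scale with PK9328 (edgeR adjusted p = 0.0026). Of 12 genes listed under cytokinesis, 3 rose and 2 fell with MS172 and 2 fell with PK9328, and 4 were higher and 2 lower with MS172 than with PK9328. That list also holds PLK4 and MIS18A, which are not cytokinesis genes proper. MIS18A was among those that rose with MS172, by 0.23 (edgeR adjusted p = 0.0022). Of 16 further regulators of mitotic entry and exit, 3 rose and 1 fell with MS172, 1 rose and 2 fell with PK9328, and 6 were higher and 4 lower with MS172 than with PK9328.

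Of 28 genes of G1/S and DNA replication, the phase before, 5 rose (17.9%, against 17.9% of all genes) and 2 fell (7.14%, against 17.2%) with MS172, at a median of -0.03, against -0.02 over all genes. With PK9328, 13 fell (46.4%, against 7.48% of all genes) and 0 rose by edgeR, at a median of -0.16, with 1 above 0 at an unadjusted p under 0.05 and 0 higher by DESeq2 and limma-voom. In the direct comparison 17 were higher (60.7%, against 23.3% of all genes) and 1 lower with MS172, at a median of 0.16. PCNA, the replication clamp, averaged 116 ± 2.3 CPM with MS172, 83.8 ± 1.2 CPM with PK9328 and 101 ± 2.7 CPM with DMSO. It rose by 0.19 with MS172 and fell by 0.28 on the log2 scale with PK9328 (edgeR adjusted p = 0.00038 and 8.7e-06). The medians of the mitotic members in the same comparisons were 0.07, -0.10 and 0.19.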

How the data were processed

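Each library came as a table of 197653 transcripts whose columns, per the file headers, are length, effective length, TPM and estimated counts of reads; the authors' deposited TPM values are scaled to transcript length and to a fixed total. The submitters' processing notes name genome build hg38 and FastQC 0.11.8; which quantifier and index were used is not given in the sources used here. Estimated counts were summed per gene with GENCODE 29 (193348 transcripts matched; 0.356 to 0.382% of reads did not) and rounded to whole numbers. The main test was the edgeR 4.0.16 quasi-likelihood test with TMM factors and filterByExpr, fitted to all 9 libraries with 6 residual degrees of freedom, and Benjamini-Hochberg adjustment over 13914 genes; a gene is called at an adjusted p under 0.05. CPM are computed with TMM library sizes, and intervals are 95%. Fragment length was estimated per library as the gap between the length and effective length columns, for transcripts of 3000 bases or more.

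The members and lists were chosen with earlier results of these data known. Values per library are given for the 6 members of largest fold change in each comparison that were called and did not overlap, and for CDK1, CCNB1, PLK1, FOXM1, MKI67, TOP2A, BIRC5, CKS1B and CKS2. From each other list up to 4 called genes of smallest p were eligible, plus CDKN1A, MYBL2 and WEE1. Alternatives, 20 in all, used RLE factors, other filters, DESeq2 1.42.0, limma-voom (limma 3.58.1), the replicate number as a block, length-scaled TPM, fragment length as a covariate, offsets for GC content and length (mgcv 1.9.3), only the 6 libraries compared, and each library left out. Replicate numbers did not pair the libraries: over 9 same-numbered pairs the correlation of deviations was -0.057 to 0.017. Intervals and SE cover the spread between these libraries.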

Additional observations from a re-analysis of the deposited data

How the results depend on the processing

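Member counts for MS172 against DMSO kept within 1.5 times of 11 except 19 with the GC and length offset that was not centred, and ran from 9 to 13 with a library left out. Of the 11, 8 were called in all 20 alternatives: AURKA, AURKB, CDK1, CKS1B, CKS2, PLK1, PTTG1 and UBE2C. For PK9328 against DMSO the count of 14 became 8 with length-scaled TPM and 0 with the fragment length covariate. It was 18 with the centred GC and length offset, 20 with the one not centred, and 9 to 15 with a library left out. No call held in all 20 alternatives, and 6 held in all but the covariate (CENPF, FOXM1, KIF20A, MKI67, PTTG1 and TOP2A). For MS172 against PK9328 the count of 22 became 10 with the covariate and 20 to 22 with a library left out, and 10 calls held in all 20. Over all genes, 4884, 2151 and 6641 calls in those 3 comparisons ran over 3874 to 4897, 1384 to 2215 and 5651 to 6770 with a library left out; PK9328 against DMSO had 1080 with length-scaled TPM and 178 with the covariate, and MS172 against PK9328 2480 with the covariate. The splits of higher and lower calls, 2486 and 2398, 1110 and 1041, and 3240 and 3401, became 3216 and 1891 and 4021 and 2739 with the offset not centred (first and last comparison) and 111 and 67 with the covariate (PK9328 against DMSO). The replicate numbers did not pair the libraries, and with the replicate block the members called were 11 higher and 1 (MKI67) lower, 1 higher and 11 lower, and 21 higher and 0 lower in the 3 comparisons. The cause of these changes was not tested.

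Signs turned for members near 0. For MS172 against DMSO these were CENPA (-0.13 with length-scaled TPM, -0.02 with the centred offset, -0.01 to 0.02 with a library left out), CENPE (0.16 with length-scaled TPM, -0.14 to 0.03 with a library left out), KIF23 (0.00 with the stricter filter, -0.04 to 0.05 with a library left out), KIF11 (0.00 with the offset not centred) and NUSAP1 (-0.16 with length-scaled TPM). For PK9328 against DMSO the covariate gave BUB1 0.12, NUSAP1 0.03, DLGAP5 0.03, HMMR 0.07, TTK 0.12 and NEK2 0.15, length-scaled TPM gave BIRC5 0.01, KIF23 0.10 and NUSAP1 0.05, and with a library left out CENPE ran from -0.12 to 0.05, HMMR from -0.13 to 0.02 and NEK2 from -0.04 to 0.02. For MS172 against PK9328, leaving out a library gave CDC25C -0.04 to 0.07, PRC1 -0.02 to 0.06, BUB1 -0.07 to 0.03 and CENPE -0.04 to 0.02. There BUB1 was 0.03 and 0.08 with the centred and other offset, BUB1B -0.11 and NUSAP1 -0.21 with length-scaled TPM, and HMMR 0.04 with the offset not centred. CENPE was 0.00 with RLE factors, DESeq2 and the centred offset, 0.20 with length-scaled TPM, and 0.05 with the covariate and with the other offset, and KIF11, called at 0.12, was -0.02 with the covariate.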
